A study of Rattus norvegicus with 12 samples.

Results

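Nitric oxide and arginase genes were examined in the rat cervix with and without its macrophages (Mφs). The members are the genes Nos1, Nos2, Nos3, Arg1, Arg2, Ass1, Gucy1a3, Gucy1b3 and Prkg1, chosen by the gene name that the array files give each probe. These 9 genes were measured by 12 probes, among 26583 gene names and 30367 probes on the array. The study put RNA of 12 adult female Sprague-Dawley rats on 1-colour Agilent arrays, with 3 rats in each of 4 groups and a different rat on every array. Whole cervix came from pregnant rats on day 21, the day before birth (D21; rats 5, 6 and 7), and from non-pregnant rats in proestrus (NP; rats 8, 9 and 10). Mφ-depleted cervix came from other D21 rats (1, 2 and 4) and other NP rats (5, 6 and 7).

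All rats were perfused with saline, and every cervix was dispersed to single cells with collagenase. The depleted samples were then incubated with the ED1 antibody to Mφs and magnetic beads, while whole samples were frozen without these steps. Handling and depletion therefore cannot be told apart. Nor can fewer cells of a type be told apart from less RNA per cell in such bulk samples.

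Nitric oxide synthases make nitric oxide and citrulline from arginine. The neuronal form (Nos1) and the endothelial form (Nos3) are calcium dependent, whereas the inducible form (Nos2) is a standard marker of classically activated Mφs in rodents. Arginases compete for the same arginine and turn it into ornithine and urea, and Arg1 is the usual rodent marker of alternatively activated Mφs. Argininosuccinate synthase (Ass1) rebuilds arginine from citrulline. Soluble guanylate cyclase, a dimer of the subunits encoded by Gucy1a3 and Gucy1b3, is the receptor of nitric oxide, and its product cGMP activates the kinase Prkg1, which relaxes smooth muscle. In the cervix nitric oxide has been studied as a mediator of ripening before birth.

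The probes decide what could be measured, so probes of members on which the results turn are shown here. Each probe has 60 bases, and it is written 5′ to 3′ as the array files give it. Those of Ass1, Nos3 and Arg2 are given whole, and for the others only the first 30 bases are given.
Ass1, chr3:10620727-10622079: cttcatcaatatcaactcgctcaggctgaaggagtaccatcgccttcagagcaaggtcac
Nos3, chr4:6159286-6159345: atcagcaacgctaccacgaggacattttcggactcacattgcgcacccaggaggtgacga
Arg2, chr6:101927878-101927937: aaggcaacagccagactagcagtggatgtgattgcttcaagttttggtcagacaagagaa
Arg1, chr1:21011150-21011209: aggagttaaaatacacagtgatgtcaagtg
Gucy1b3 probe 1, chr2:173683711-173683770: tggaactctaggatacatatttctgttatt
Gucy1b3 probe 2, chr2:173685920-173685979: caagcaggacagaaaccacaggagaaaagg

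The array files place the probes on the rn4 assembly. The Ass1, Arg1 and Arg2 probes lie on the plus strand and the Nos3 and Gucy1b3 probes on the minus strand. The Ass1 probe spans 1353 bases of the genome, more than its own length, so it crosses a splice junction. Nos1, Gucy1a3 and Prkg1 lie at chr12:39810923-39810982 and chr12:39815023-39815082 (Nos1), chr2:173755356-173755415 and chr2:173756825-173756884 (Gucy1a3) and chr1:234423423-234423482 (Prkg1), all on the minus strand. The accessions of 11 of the 12 probes were those of the member in RefSeq, where the current symbols of Gucy1a3 and Gucy1b3 are Gucy1a1 and Gucy1b1. The remaining probe was Gucy1a3 probe 1.

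Values are log2 signals relative to the 75th percentile of each array, so that 0 is the 75th percentile. They compare the same probe between arrays, and levels of different genes are not set against each other. A probe was detected on an array when the scanner software rated it well above background. Nos3, Arg1, Arg2 and Ass1 were detected on all 12 arrays. The brighter Gucy1b3 probe was detected on 7 arrays, Prkg1 on 5, each Gucy1a3 probe on 4, the brighter Nos1 probe on 3 and Nos2 on 1, whereas Nos1 probe 1 was detected on none. A gene was tested in a comparison when all 3 rats of at least 1 group had it detected. It was called where limma gave a difference of 2-fold or more and an unadjusted p under 0.01, and Benjamini-Hochberg adjusted p-values over all genes tested are given beside it.

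**Figure D1:**
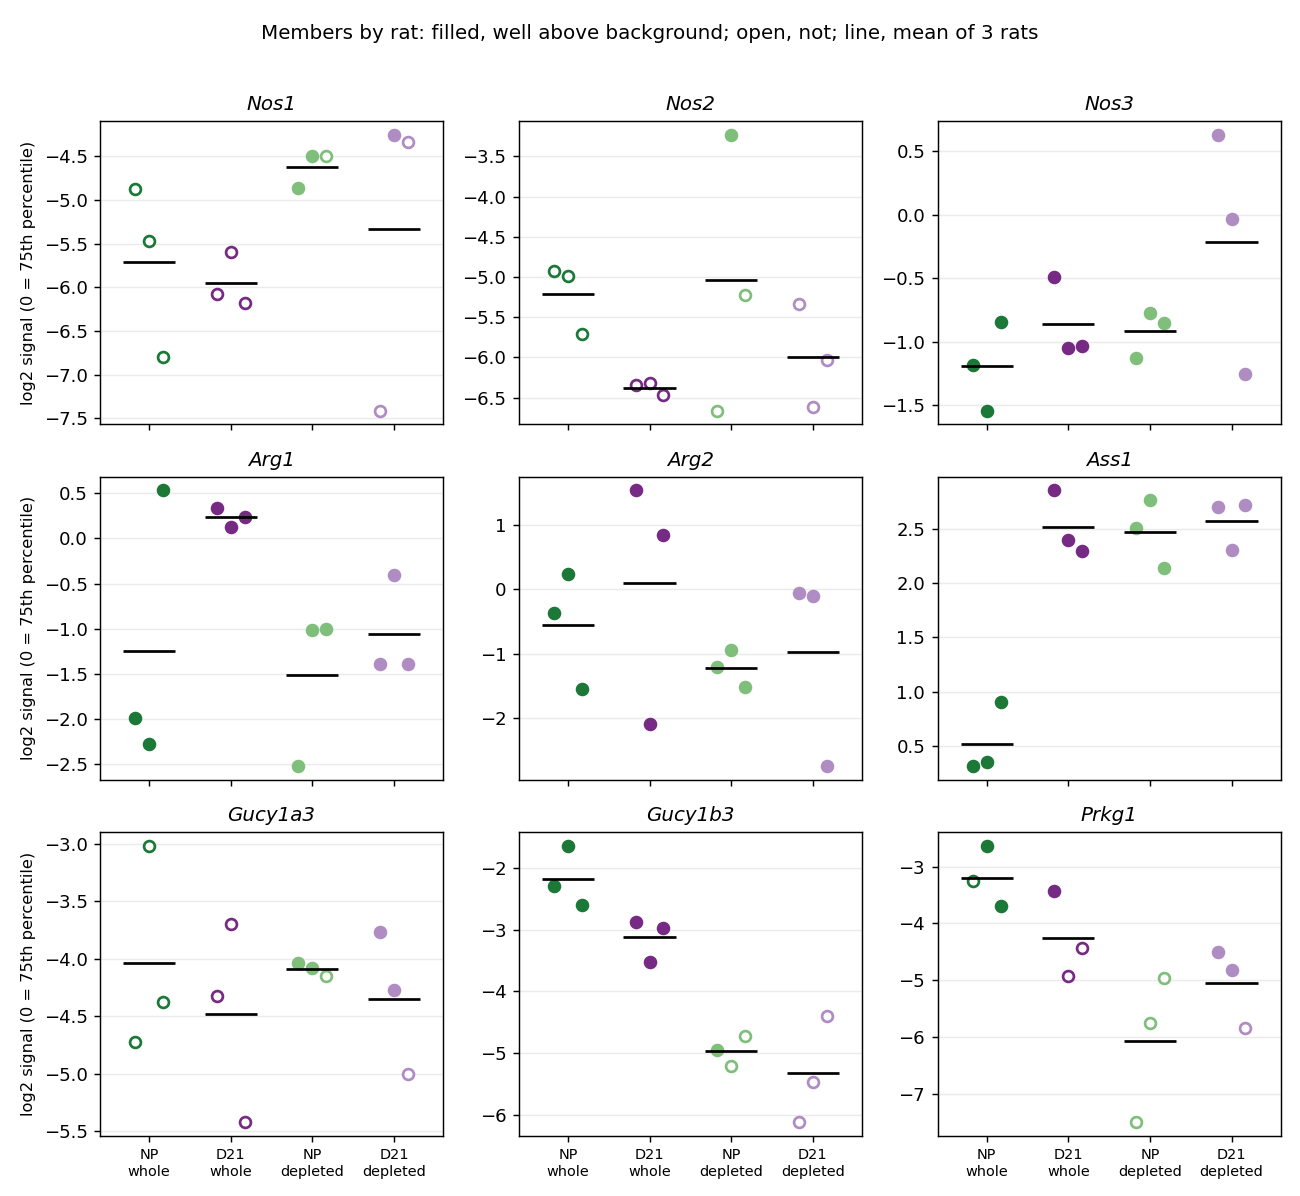
Log2 signal of the brightest probe of each member (vertical axis, 0 is the 75th percentile of the array) in each of the 12 rats, by group; filled points are well above background, open points are not, and lines are means of 3 rats. Ass1 is lowest in the 3 NP whole cervices, Gucy1b3 is highest in the 6 whole cervices, and Nos2 has 1 filled point.

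The samples carried limits that touch these genes. Between 44.9% and 61.7% of probes were detected on an array, and the 75th percentile of intensity ran from 290 to 1170. Slides numbered 4, and they were scanned over 3 days. D21 whole rats shared a slide with NP whole rat 10 alone, and no slide held both whole and depleted cervix of D21 rats. Depleted D21 rat 1 was alone on its slide and day and so adds nothing to a fit with slide or day as a block. The list of 17 Mφ markers had a mean log2 signal of 1.57 to 1.62 in D21 whole and 1.08 to 1.80 in NP whole cervix, against -3.22 to -2.48 and -3.59 to -3.17 in the depleted groups. Cd68, the antigen of ED1, did not follow the list, with means of 0.74 in whole and 0.89 in depleted D21 cervix and of 0.16 and -0.39 in NP cervix (adjusted p = 0.882 and 0.53).

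The inducible synthase Nos2 was not well above background in whole cervix of any rat. Its log2 signals were -6.34, -6.32 and -6.47 in D21 whole and -4.92, -4.99 and -5.71 in NP whole cervix. In depleted cervix they were -5.33, -6.62 and -6.03 in D21 rats and -6.66, -3.23 and -5.23 in NP rats. Only NP depleted rat 6, at -3.23, was detected. Nos2 could therefore be tested in no comparison, and its lower D21 whole values have no fold. The lowest signal rated well above background differed between arrays, from -5.35 in D21 depleted rat 1 to -2.93 in NP depleted rat 7.

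Nos1, the neuronal synthase, was tested in no comparison either. Its probe 2 was detected in NP depleted rats 5 and 6 at -4.86 and -4.49 and in D21 depleted rat 2 at -4.25, which are the 3 arrays of slide 1. The other 9 arrays read from -7.41 to -4.33 without detection. Detection of Nos1 thus moved with the slide, and the part of the slide in it was not tested. Nos1 probe 1 read from -7.44 to -4.97 and was not detected.

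Nos3, the endothelial synthase, was the only synthase that could be compared. Its log2 signals were -0.49, -1.05 and -1.03 in D21 whole cervix and -1.18, -1.54 and -0.84 in NP whole cervix. The groups overlapped, and the difference of 0.33 (SE 0.41, 95% interval -0.58 to 1.23) was not called (adjusted p = 0.679). In depleted cervix Nos3 read 0.63, -0.03 and -1.25 in D21 rats and -1.13, -0.77 and -0.85 in NP rats. D21 depleted rats spanned more than the other groups, with the highest and, at -1.25, one of the lowest values of the 12. Nos3 was not called between whole and depleted cervix, with differences of -0.64 in D21 rats (adjusted p = 0.268) and -0.27 in NP rats (adjusted p = 0.649), nor between D21 and NP depleted cervix (0.70, adjusted p = 0.336). These results turned on D21 depleted rat 4, the only D21 depleted rat scanned on the third day, as all D21 whole rats were. Without it Nos3 was lower in whole than in depleted D21 cervix by a log2 difference of -1.16 (adjusted p = 0.0133) and higher in D21 than in NP depleted cervix by 1.22 (adjusted p = 0.0204). Leaving it out puts D21 whole and depleted rats on different scan days, so scan day and depletion cannot then be told apart. Within the third scan day, 3 rats against 1, the whole minus depleted difference in D21 rats was 0.4. With scan day as a block it was 0.02. Endothelial markers, the genes of the cells that carry Nos3, had group means between -0.59 and 0.11 in all 4 groups, and at least 9 of the 10 were detected on every array. In whole against depleted cervix 4 of 10 were called higher and none lower in D21 rats, and 3 of 9 higher and 1 lower in NP rats, whereas Nos3 differences were negative there. Of all genes tested, 17.8% were called there in D21 and 24.4% in NP rats. The part of endothelial cells in the Nos3 values was not tested.

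Arg1, the cytosolic arginase, was detected on every array and was scattered widely among NP rats. Its log2 signals were 0.34, 0.12 and 0.23 in D21 whole cervix and -1.99, -2.27 and 0.53 in NP whole cervix. The D21 rats were close together, and NP rat 10 stood above all of them. The difference of 1.47 (SE 0.66, 95% interval 0.02 to 2.93) was not called (adjusted p = 0.214 in limma). Without NP rat 10 it was 2.36 and was called (adjusted p = 0.0369). Rat 10 was the NP whole rat on the slide of the D21 whole rats, and within that slide, as with slide as a block, the difference was -0.30. Slide and rat cannot be told apart here.

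In depleted cervix Arg1 read -1.39, -0.41 and -1.39 in D21 rats and -2.52, -1.01 and -1.0 in NP rats. All 3 D21 whole rats lay above the 3 D21 depleted rats, with a difference of 1.29 (SE 0.66, 95% interval -0.16 to 2.75) that was not called (adjusted p = 0.171). A fit on these 6 arrays alone called it (adjusted p = 0.0402 in limma). With slide as a block, a value that can only be had through the arrays of NP rats, the difference was -1.54 (adjusted p = 0.615), and within the third scan day, 3 rats against 1, it was 1.61. In NP rats whole and depleted cervix overlapped, with a difference of 0.26 (adjusted p = 0.791). The D21 and NP depleted groups also overlapped, with a difference of 0.44 (adjusted p = 0.73). No difference of this change with depletion by pregnancy was shown (interaction 1.03, SE 0.94, adjusted p = 0.579).

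Set side by side, Nos2, the marker of classical activation, was not well above background in any of the 6 whole cervices, of D21 and NP rats alike, and Arg1, the marker of alternative activation, was detected in all 6. These are 2 probes, and their levels cannot be compared. No test of one change against the other was possible, because Nos2 could not be tested. Arg1 was also detected in all 6 depleted cervices, in which 6 to 12 of the 17 Mφ markers were detected.

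Arg2, the mitochondrial arginase, had the widest standard errors of the members tested. It read 1.54, -2.09 and 0.84 in D21 whole cervix and -0.37, 0.24 and -1.55 in NP whole cervix. In depleted cervix it read -0.06, -0.11 and -2.75 in D21 rats and -1.20, -0.95 and -1.52 in NP rats. D21 whole cervix thus held both the highest value of the 12 and the second lowest. Arg2 was called in no comparison. The log2 differences were 0.66 for D21 against NP whole cervix (95% interval -1.37 to 2.69), 1.07 for whole against depleted cervix in D21 rats (-0.96 to 3.1), 0.66 in NP rats (-1.37 to 2.69) and 0.25 for D21 against NP depleted cervix (-1.78 to 2.27), and these intervals leave room for changes of over 2-fold either way in all but one comparison, where the lower bound is -0.96.

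Ass1, the recycling enzyme, was the only member called with pregnancy in whole cervix. Its log2 signals were 2.86, 2.40 and 2.30 in D21 whole cervix and 0.31, 0.35 and 0.90 in NP whole cervix. The groups did not overlap. Ass1 was higher in D21 whole cervix by 2.00 (SE 0.27, 95% interval 1.41 to 2.59), which is 4-fold (adjusted p = 0.00409). Ass1 was the 1 member called of 5 tested in this comparison, in which 8.5% of all genes tested were called. Ass1 and Gucy1b3 were the 2 members whose groups did not overlap, which held for 44.2% of all genes in this comparison. In a fit with a term for the slide Ass1 differed by 1.62. This is the difference from NP rat 10 alone, the only NP whole rat on the slide of the D21 whole rats, so it sets 3 rats against 1.

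After depletion the difference was not seen. Ass1 read 2.71, 2.31 and 2.72 in D21 depleted cervix and 2.51, 2.77 and 2.14 in NP depleted cervix, which overlap. The difference was 0.11 (95% interval -0.48 to 0.69, adjusted p = 0.845). None of the 4 members tested between D21 and NP depleted cervix was called, nor did any reach an unadjusted p of 0.05 in limma, and the methods' t-test called 0 as well, where limma called 7.48% of all genes. No member's groups were apart in this comparison, against 17% of all genes.

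In NP rats Ass1 was lower in whole than in depleted cervix by a log2 difference of -1.96 (SE 0.27, 95% interval -2.54 to -1.37, adjusted p = 2.6e-04). That is 3.88-fold, and the groups did not overlap. Within the slide that held both, 2 rats against 1, the difference was -1.81. In D21 rats whole and depleted cervix differed by -0.06 (95% interval -0.65 to 0.53, adjusted p = 0.884). The change with depletion differed between D21 and NP rats, with an interaction of 1.89 (SE 0.38, 95% interval 1.05 to 2.73, adjusted p = 0.0301 in limma). Ass1 was the 1 member of 5 with an interaction, against 2.37% of all genes. With slide as a block the interaction was 1.56 and no longer passed (adjusted p = 0.235), and it also missed the threshold on leaving out any 1 of 9 rats (all but NP whole rat 10, NP depleted rat 7 and D21 depleted rat 4), with values of 1.72 to 2.08 over the 12.

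The order of Ass1 levels was thus NP whole cervix lowest, and then NP depleted, D21 whole and D21 depleted cervix, whose means of 2.48, 2.52 and 2.58 did not differ beyond their spread. Epithelial markers were also lowest in NP whole cervix. The mean log2 signal of 9 epithelial markers was 2.99 to 3.31 in NP whole cervix, 4.27 to 4.74 in NP depleted, 4.37 to 4.78 in D21 whole and 5.01 to 5.12 in D21 depleted cervix, and all 9 were detected on every array. In D21 against NP whole cervix 7 of the 9 were called higher and none lower, and in NP whole against depleted cervix 5 of the 9 were called lower and none higher. In D21 whole against depleted cervix, where Ass1 was not called, 3 of the 9 were called lower and 1 higher, and in D21 against NP depleted cervix, where Ass1 was not called either, 3 were called higher. Of all genes tested, 8.5%, 24.4%, 17.8% and 7.48% were called in these comparisons, in that order. Immediate-early genes were lowest in NP whole cervix as well, with a group mean of -0.83. Their means were 1.84 in NP depleted, -0.4 in D21 whole and 2.94 in D21 depleted cervix. In the same order of comparisons as for the shares above, 7 of 8 were called lower in the second and 8 of 9 lower in the third. In the first 1 of 7 were called higher and in the last 5 of 9. The part of epithelial cells, or of the change in immediate-early genes, in the Ass1 differences was not tested.

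**Figure D2:**
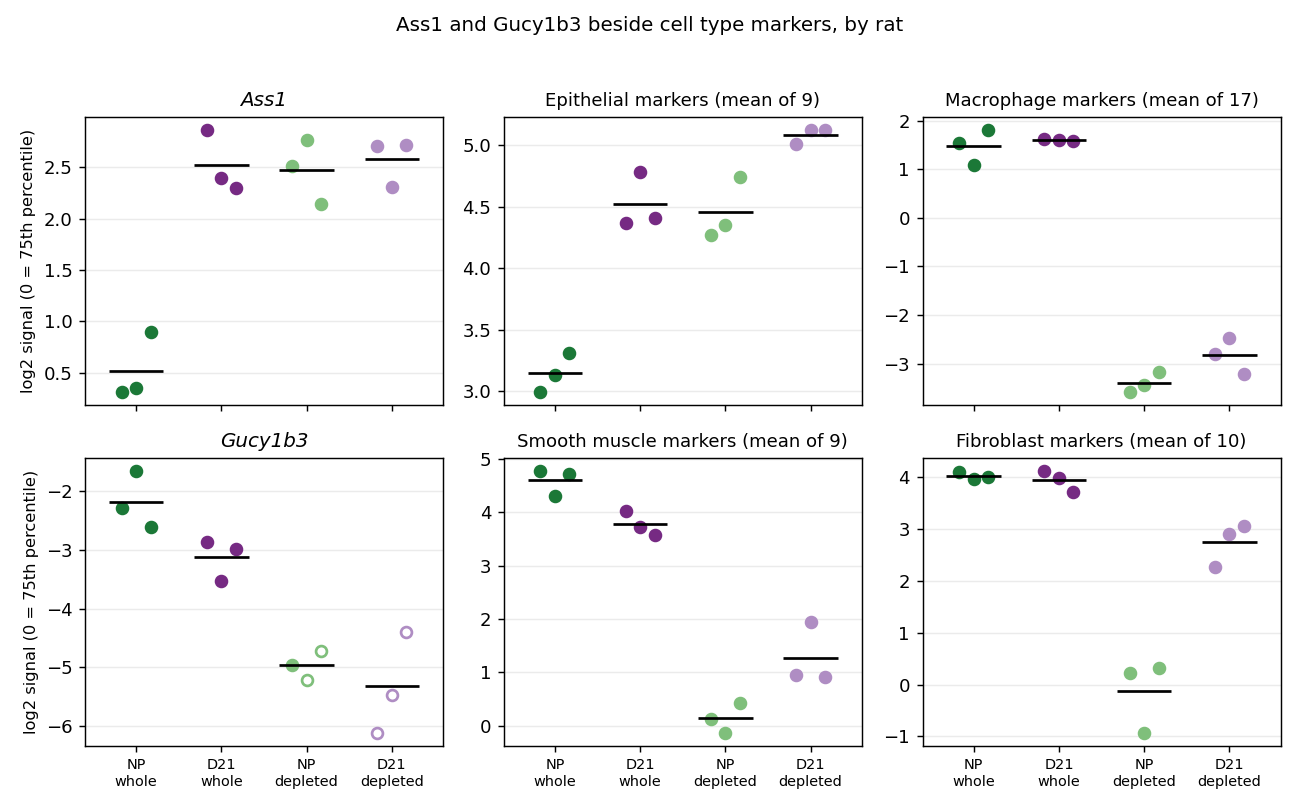
Log2 signal (vertical axes, 0 is the 75th percentile of the array) in each rat by group for Ass1 and Gucy1b3, where open points are not well above background, and for the mean of 4 lists of cell type markers; lines are means of 3 rats. NP whole cervix is lowest for Ass1 (mean 0.52) and for epithelial markers (mean 3.14). Both depleted groups are lowest for Gucy1b3 and for smooth muscle, fibroblast and Mφ markers alike.

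The receptor subunit Gucy1b3 was higher in whole than in depleted cervix of both D21 and NP rats. Its brighter probe read -2.87, -3.52 and -2.98 in D21 whole and -2.29, -1.65 and -2.61 in NP whole cervix, all detected. In depleted cervix it read -6.11, -5.46 and -4.40 in D21 rats, none detected, and -4.95, -5.21 and -4.72 in NP rats, of which only rat 5 was detected. Whole and depleted groups did not overlap.

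In D21 rats the difference was 2.20 (SE 0.41, 95% interval 1.30 to 3.1, adjusted p = 0.0052). Since no depleted array measured it, the higher level of Gucy1b3 in whole cervix is a bound, at least 2.97-fold. This bound sets the mean of the whole arrays against the lowest signal well above background on each depleted array, or the probe's own where that is higher. In NP rats the difference was 2.78 (SE 0.41, 95% interval 1.88 to 3.67, adjusted p = 4.1e-04), with 1 of 3 depleted arrays measured, so that its size rests largely on signals near background.

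Gucy1b3 was the 1 member called of 5 tested in D21 rats, where 17.8% of all genes tested were called. In NP rats it was 1 of 2 called of 5, with Ass1, where 24.4% were called. The groups of 2 members did not overlap in either comparison (Arg1 and Gucy1b3 in D21 rats, Ass1 and Gucy1b3 in NP rats), against 44.4% of all genes tested in D21 and 46.9% in NP rats. Whether pregnancy altered this difference could not be judged, since 5 of the 6 depleted arrays were not well above background. Under normexp background correction the differences shrank to 0.23 in D21 rats (adjusted p = 0.898) and 1.40 in NP rats (adjusted p = 0.144) and were not called. Within the third scan day, 3 rats against 1, they were 1.28 and 2.54, in each case against a depleted array that was not well above background. The methods' t-test did not call the D21 difference (adjusted p = 0.205) but called that in NP rats. In limma with slide as a block the D21 difference was 2.11 (adjusted p = 0.218), and with scan day as a block 1.48 (adjusted p = 0.0536). Both were called on the unadjusted p alone.

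The dimmer Gucy1b3 probe ran the same way in its group means alone, with smaller differences, and it could not be tested. Its means were -4.33 in D21 whole and -5.37 in D21 depleted cervix, and -3.63 in NP whole and -4.61 in NP depleted cervix, with detection on 1, 1, 2 and 2 of 3 arrays. The rats overlapped. D21 depleted rat 2, detected at -4.13, lay above all 3 D21 whole rats, while D21 depleted rats 1 and 4 were not detected (-5.94 and -6.02). NP depleted rat 6, detected at -3.87, lay above NP whole rat 8 at -4.43. Between D21 and NP whole cervix the brighter probe was lower in D21 rats by a log2 difference of -0.94 (SE 0.41, 95% interval -1.84 to -0.04) that was not called (adjusted p = 0.2 in limma), although the groups did not overlap.

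Gucy1a3, the partner subunit, stayed near background and was tested in no comparison. Its brighter probe was detected in none of the 6 whole cervices, at -4.32, -3.70 and -5.42 in D21 and -4.72, -3.02 and -4.38 in NP rats. In depleted cervix it was detected in D21 rats 1 and 2 (-3.77 and -4.27) and in NP rats 5 and 6 (-4.04 and -4.08). These were all the arrays of the first and second scan days, and no array of the third day detected it. The undetected whole readings of -3.02 and -3.70 were above every detected one. Detection of this probe thus moved with the scan day, and the part of the scan day in it was not tested. Probe 1 was detected in NP whole rats 9 and 10, at -2.31 and -4.39, and in NP depleted rats 5 and 6, at -4.93 and -4.42. Both probes were thus detected in NP depleted rats 5 and 6, and they differed in the other 2 rats each detected. For probe 1 no minimum fold of NP over D21 whole cervix can be given, because NP whole rat 8, at -5.20, was not detected. NP whole rat 9 alone lay above all 3 D21 whole readings (-4.21, -4.84 and -4.31), and no test was made.

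Prkg1, the cGMP-dependent kinase, read -3.43, -4.92 and -4.43 in D21 whole cervix and -3.25, -2.64 and -3.69 in NP whole cervix. In depleted cervix it read -4.51, -4.82 and -5.85 in D21 rats and -7.50, -5.75 and -4.96 in NP rats. NP whole rats lay above all NP depleted rats. Detection was in 1 of 3, 2 of 3, 2 of 3 and 0 of 3 rats of these groups, in that order, so Prkg1 was not tested. For Prkg1 no minimum fold of whole over depleted NP cervix can be given, because NP whole rat 8, at -3.25, was not detected. On the array of NP depleted rat 7 the lowest signal rated well above background was -2.93. This is above the NP whole readings of -3.25 and -3.69.

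Markers of smooth muscle, in which this receptor and kinase act, moved with Gucy1b3 in D21 and NP rats. They also moved with the untested Prkg1 readings in NP rats. Lists of several other cell types moved the same way. The mean of 9 smooth muscle markers was 4.30 to 4.78 in NP whole and -0.13 to 0.43 in NP depleted cervix, and 3.58 to 4.02 and 0.91 to 1.94 in D21 rats. In whole against depleted cervix 9 of 9 were called higher in NP rats and 6 of 9 in D21 rats, and 7 to 9 of the 10 on the array were detected on each depleted array. Fibroblast markers were called higher in 9 of 10 in NP and 3 of 10 in D21 rats, and Mφ markers in 13 of 15 and 15 of 17. Skeletal muscle markers were called higher in 5 of 5 and 2 of 4, and T and NK cell markers in 3 of 4 and 1 of 6. Mast cell markers were called higher in 3 of 5, with 1 lower, in NP and in 4 of 6 in D21 rats. Among 9 epithelial markers 5 were called lower in NP rats, and 3 lower and 1 higher in D21 rats. Of all genes tested, 24.4% were called in NP and 17.8% in D21 rats. The part of these cell types in the Gucy1b3 and Prkg1 differences was not tested. Immediate-early genes ran the other way, with 7 of 8 tested called lower in whole than in depleted cervix in NP rats and 8 of 9 in D21 rats.

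**Figure D3:**
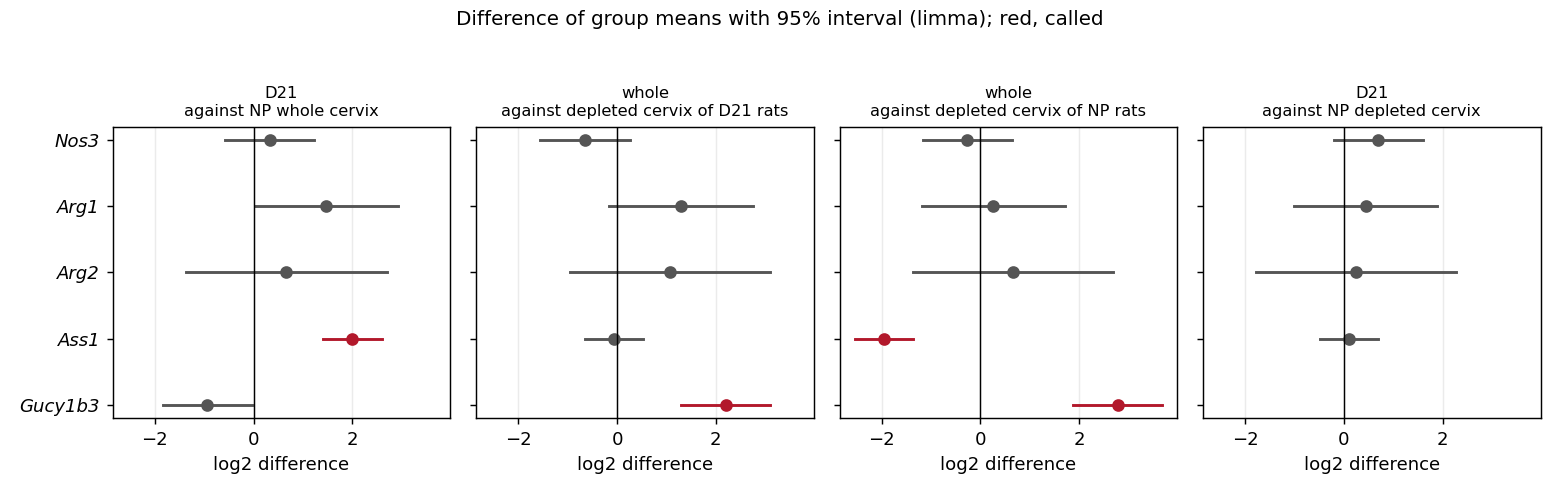
Log2 difference of group means (horizontal axis) with its 95% interval from limma for the members tested in each of the 4 comparisons; red marks called members. Ass1 is called in D21 against NP whole cervix (2.00) and in NP whole against depleted cervix (-1.96), Gucy1b3 in both comparisons of whole with depleted cervix, and none in depleted cervix, where Gucy1b3 was not tested.

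The other genes of these pathways were taken from 7 lists. For arginine supply and citrulline recycling, 0 of 6 tested genes were called in D21 against NP whole cervix, while 2 genes exceeded their depleted level and 1 fell short of it in whole cervix of D21 as well as NP rats. Of all genes tested, 8.5% were called in the first of these comparisons, and 17.8% (D21) and 24.4% (NP) between whole and depleted cervix. The arginine exporter Slc7a7 was higher in whole cervix, by 2.93 in D21 rats (adjusted p = 0.00997) and 3.13 in NP rats (adjusted p = 0.00302). Gatm, which uses arginine to make the precursor of creatine, was higher by 2.46 and 2.75 (adjusted p = 0.00325 and 5e-04). The arginine importer Slc7a1 was lower in whole cervix, by -1.14 in D21 rats (adjusted p = 0.0296) and -2.63 in NP rats (adjusted p = 1.1e-04). Over these 6 genes the median log2 difference was 0.09 for D21 rats and 0.60 for NP rats, against -0.06 and -0.04 over all genes.

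Of 6 tested genes for the synthase cofactor tetrahydrobiopterin, only Spr, the reductase of the last step, was called in any comparison. It was lower in NP whole than in NP depleted cervix by -1.23 (adjusted p = 0.0158), where 24.4% of all genes were called. Among 9 tested genes for partners of the synthases and for clearance of their methylated inhibitors, Ddah1, which degrades such inhibitors, was lower in whole than in depleted cervix by -1.74 in D21 rats (adjusted p = 0.00858) and -1.86 in NP rats (adjusted p = 0.00242). Nostrin, which moves Nos3 within the cell, was higher by 1.76 and 1.54 (adjusted p = 0.00754 and 0.00647). Cav1, which binds and restrains Nos3, was higher by 1.67 in NP whole cervix (adjusted p = 0.00546). In D21 against NP whole cervix Prmt1, which methylates arginine, was lower by -1.58 and Nostrin higher by 1.21, called on the unadjusted p alone (adjusted p = 0.0559 and 0.0688). In depleted cervix only Cav1 of this list was called, higher in D21 rats by 1.20 (adjusted p = 0.0988).

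For cGMP signalling all calls in whole against depleted cervix were higher, with 5 of 13 genes in D21 rats and 6 of 11 in NP rats, where 17.8% and 24.4% of all genes were called in either direction. The median log2 difference was 1.12 and 1.27, against -0.06 and -0.04 over all genes. Kcnmb1, the smooth muscle subunit of the calcium-activated potassium channel, was higher by 5.02 in D21 rats and 5.51 in NP rats (adjusted p = 3.9e-05 and 5e-06). In NP rats Mrvi1, a substrate of Prkg1, was higher by 4.43 (adjusted p = 2e-06), and the channel itself, Kcnma1, was at least 2.54-fold higher (adjusted p = 0.0325). In D21 rats the next largest were Pde1b, a phosphodiesterase of cyclic nucleotides, at 1.80 (adjusted p = 0.0253) and Ppp1r12a, the targeting subunit of myosin phosphatase, at 1.61 (adjusted p = 0.0187). The other calls were Mrvi1 and the phosphodiesterase Pde9a in D21 rats (1.12 each) and Npr2, Pde9a and Ppp1r12a in NP rats (2.16, 2.13 and 1.27), named here outside the rule because their number is small.

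Between D21 and NP whole cervix 3 of 13 cGMP genes were called, against 8.5% of all genes tested. Prkg2, the second cGMP-dependent kinase, was higher in D21 rats at least 6.95-fold (adjusted p = 0.0326), and no NP whole array detected it. Nppc, which encodes C-type natriuretic peptide, was higher by 2.87 (adjusted p = 0.0748), and Mrvi1 was lower by -1.08 (adjusted p = 0.0512). In depleted cervix Mrvi1 was higher in D21 rats by 2.23 (adjusted p = 0.00155), as was Npr2, the receptor of that peptide, by 1.05 (adjusted p = 0.0753).

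Downstream of the arginases, 1 of 12 tested genes for ornithine, polyamines and proline was called in each of 3 comparisons, in which 8.5%, 17.8% and 24.4% of all genes were called. Spermine synthase (Sms) was higher in D21 than in NP whole cervix by 1.33 (adjusted p = 0.0371). Amd1, which supplies the aminopropyl donor, was lower in whole than in depleted D21 cervix by -1.05 (adjusted p = 0.026). Odc1, which turns ornithine into putrescine, was lower in whole than in depleted NP cervix by -1.25 (adjusted p = 0.0157). In D21 against NP depleted cervix 0 of 12 were called.

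**Figure D4:**
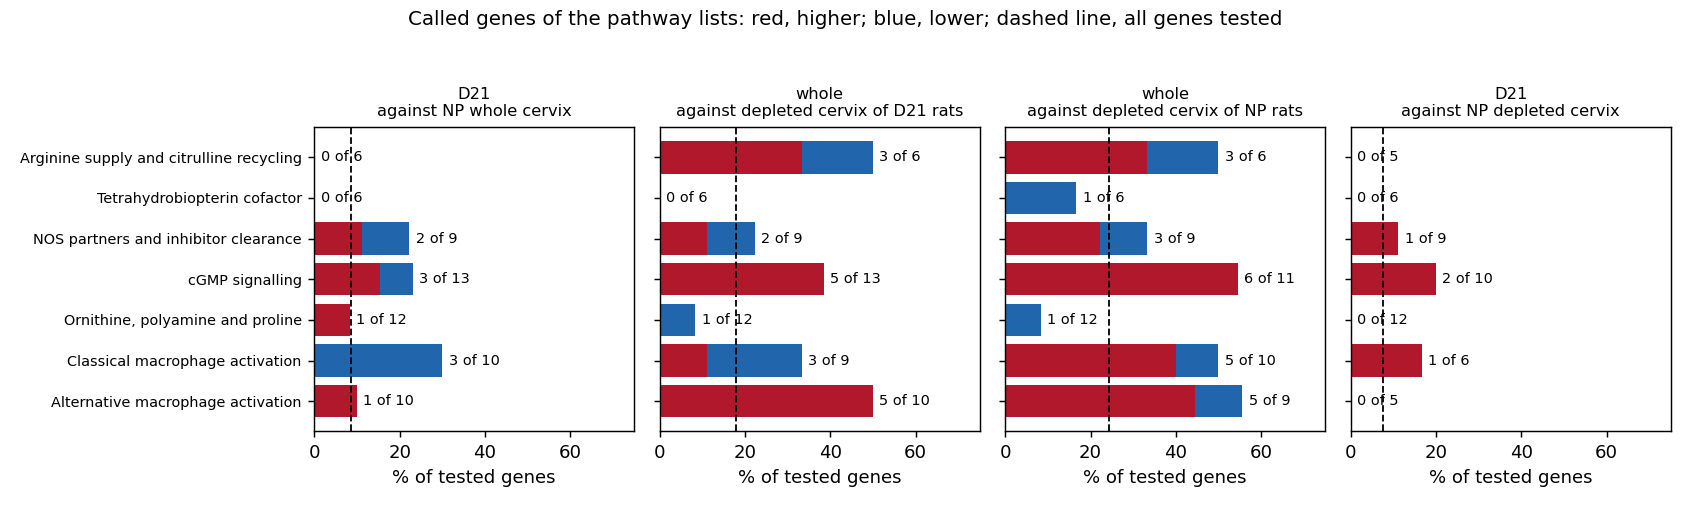
Share of the tested genes of each pathway list that were called (horizontal axis, percent) in each of the 4 comparisons, red for higher and blue for lower, with the counts beside each bar; the dashed line is the share of all genes tested. All called cGMP genes are higher in whole than in depleted cervix, with 5 of 13 in D21 and 6 of 11 in NP rats.

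Other genes of classical and alternative Mφ activation were listed beside Nos2 and Arg1. In D21 against NP whole cervix 3 of 10 classical genes were called, all lower, and 1 of 10 alternative genes, higher, with median log2 differences of -0.55 and 0.70 against -0.08 over all genes. The share called over all genes tested was 8.5%. The interleukin subunit Il12a was at least 5.63-fold lower in D21 rats (adjusted p = 0.0374) and the chemokine Cxcl9 at least 3.85-fold lower (adjusted p = 0.0238), since no D21 whole array detected either. The chemokine Ccl5 was lower by -1.65 (adjusted p = 0.0746). The alternative gene called was the scavenger receptor Cd163 (3.61, adjusted p = 0.00438). In the same comparison 3 of 6 tested markers of T and NK cells were called lower and 1 higher (median -1.88). Of 17 Mφ markers 1 was called higher and none lower (median -0.19). The part of these cells in the differences of the activation genes was not tested. These lists were drawn up with results of these samples known, and the medians are a description.

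In whole against depleted cervix of D21 rats, 5 of 10 alternative genes were called higher and none lower, led by Mrc1, Cd163 and F13a1 and with Clec10a and Stat6 beside them, whereas 1 classical gene was higher and 2 lower of 9. Ccl5 was higher by 2.02 (adjusted p = 0.0177). The interferon-induced genes Cxcl10 and Irf1 were lower, by -2.68 (adjusted p = 0.00724) and -1.88 (adjusted p = 0.0219). In NP rats 4 of 9 alternative genes were higher and 1 lower, led by the lectin receptor Clec10a at 5.24 (adjusted p = 6.8e-05), Mrc1 and F13a1. The fourth was Msr1, at least 3.51-fold higher, and the lower one was the interleukin antagonist Il1rn at -1.54. Of 10 classical genes 4 were higher and 1 lower, led by Il12a, at least 6.66-fold higher (adjusted p = 0.00225), Ccl5 at 3.55 (adjusted p = 2.8e-04) and Cxcl9 at 2.06 (adjusted p = 0.0164). The fourth was Il1b at 1.93, and Irf1 was the lower one at -1.70. In depleted cervix Cxcl10 alone was called, higher in D21 rats by 1.68 (adjusted p = 0.107). Of all genes tested, 17.8% were called between whole and depleted cervix in D21 rats, 24.4% in NP rats, and 7.48% between the depleted groups. Mrc1 and Cd163 are also among the 17 Mφ markers.

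For the 4 members detected on every array, the genes of most similar profile over the 12 arrays were found among 10903 genes by Pearson's r. The 12 values share the 4 groups and the slides, so r is a description. Ass1 was closest to Plxnb2, Hps1 and Stom, each with an r of 0.95. Nos3 was closest to Rab14 (r = 0.96), LOC681414 and Ptafr (0.92 each). Arg1 was closest to Sdcbp2 (0.87), RGD1562885 (0.84) and the transcript TC582414 (0.83). Arg2 was closest to Acy3 (0.81), to a transcript known only by an Ensembl identifier (0.81) and to Efemp1 (0.78). The r values of Arg1 and Arg2 with their nearest genes were thus below those of Ass1 and Nos3.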

How the data were processed

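Total RNA of 12 rats was hybridised with 1 rat on each array. The authors deposited the processed intensity of each spot, after background subtraction by the scanner software with no normalization between arrays. They also deposited ratio values from GeneSpring, each probe over the 75th percentile of its array, whose scale and centring were found by matching (Pearson's r of 0.9964 to 0.9994 with log2 values computed here, median difference -0.01 to 0.01, column medians 0.08 to 0.12). Control spots and 294 to 648 outlier spots for an array were left out, spots of a probe were averaged (detected if most of them were) and the 75th percentile was subtracted on the log2 scale. The brightest probe stood for a gene. The sequence and position of the Nos2 probe are not reported here.

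Groups were compared with limma 3.58.1 in R 4.3.3 (lmFit, eBayes, a mean for each group, all 12 arrays), two-sided, for genes detected on all 3 arrays of at least 1 group compared, and figures were drawn with matplotlib 3.10.9. The script was tested on simulated data. Called means p below 0.01 and at least 2-fold, the Methods' threshold, and an interaction was called at an adjusted p below 0.05. Exact permutation of 3 against 3 arrays cannot go below a p of 0.1. The number of arrays limits the precision.

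Alternatives were the Welch test of the Methods (the methods' t-test), adjusted thresholds, the 6 arrays compared, normexp (offset 50), the mean of all probes, no filter, a percentile taken over probes detected on every array, quantile normalization, the authors' values, a block for slide or for scan day, and leaving out each rat. Named are the 9 members, up to 3 called genes of largest change from each pathway list and comparison, the 3 genes most like each member detected on all arrays, and Cd68 and markers beside a member. The members and lists were chosen with earlier results of these data known.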

Additional observations from a re-analysis of the deposited data

Results flagged for a closer look

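The change of Ass1 between whole and Mφ-depleted cervix differed between D21 and NP rats, by a test of the difference itself. The log2 interaction was 1.89 (SE 0.38, adjusted p = 0.0301 in limma), from a whole minus depleted difference of -0.06 in D21 and -1.96 in NP rats. It was positive under all 20 alternatives run, from 1.56 to 2.10, and stayed past the threshold in 8 of them. The mean of the 9 epithelial markers was 3.14 in NP whole cervix and 4.45 in NP depleted cervix, against 4.52 and 5.08 in D21 rats, and its part in the Ass1 values was not tested.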

How the results depend on the processing

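No paired analysis was possible because the groups compared came from different rats and shared no replicate numbers. Over 24 single values and 442 alternatives, 391 kept direction and side of the threshold, 18 lost the call, 4 gained it and 29 changed sign. Sign changes affected values that were not called. The cause of the changes was not tested.

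Counts of called members moved as follows. In D21 against NP whole cervix (1) the methods' t-test with adjustment called 0. In whole against depleted cervix of D21 rats (1) the methods' t-test called 0, with and without adjustment, limma on the 6 arrays 2 and normexp 0. In whole against depleted cervix of NP rats (2) the adjusted methods' t-test and normexp each called 1, and 3 were called without a filter on background. The interaction count (1) was 0 under normexp, without a filter on background, and with slide as a block. Leaving out single rats gave 1 to 2, 1 to 2, 2 to 3 and 0 to 1 called members in the comparisons of D21 with NP whole cervix, of whole with depleted cervix in D21 rats and then NP rats, and of D21 with NP depleted cervix, and 0 to 1 interactions.

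With slide as a block, D21 against NP whole cervix gave -0.02 for Nos3 and -0.30 for Arg1, whole against depleted cervix gave -1.54 (D21) and -0.64 (NP) for Arg1, and the Arg1 interaction was -0.90. With scan day as a block, whole against depleted cervix gave 0.02 (D21) and 0.04 (NP) for Nos3 and 0.06 for Ass1 (D21). Ass1 in whole against depleted D21 cervix was 0.03 under normexp, 0.12 under quantile normalization and 0.13 with the percentile over detected probes, and in D21 against NP depleted cervix it was -0.13, -0.06 and -0.06. Normexp gave -0.25 for the Arg2 interaction.

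Leaving out single rats turned the sign of Arg2 in D21 against NP whole cervix (-0.07 to 1.75), Ass1 in whole against depleted D21 cervix (-0.23 to 0.05), Arg1 in whole against depleted NP cervix (-0.63 to 0.77), Arg1 (-0.06 to 0.70), Arg2 (-0.21 to 1.14) and Ass1 (-0.06 to 0.26) in D21 against NP depleted cervix, and the interactions of Nos3 (-0.89 to 0.05) and Arg2 (-0.48 to 1.50).

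The planned test of the Nos2 change against the Arg1 change gave no value under any setting, because Nos2 was well above background on only 1 array. Signal over background limits Nos1, Nos2, Gucy1a3 and Prkg1, and Gucy1b3 in depleted cervix, where differences rest on signals near background. The percentile over detected probes moved the median of all genes from -0.06 to 0.13 in whole against depleted D21 cervix and from 0.02 to -0.14 in D21 against NP depleted cervix. D21 depleted rat 1 adds nothing to either block.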
